A study of Mus musculus with 2 samples.

Results

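The 10 imprinted genes described here are H19, Igf2, Igf2r, Meg3, Rian, Mirg, Dlk1, Peg3, Cdkn1c and Grb10. They were taken by symbol from a fixed list, and all 10 were found among the 55536 annotated genes of both libraries. The data are total RNA sequencing of the gastrocnemius, a calf muscle, from female adult mice aged 8 to 10 months. Both libraries form 1 group, and its animals come from a cross of 5xFAD with CAST. 5xFAD is a transgenic line that expresses mutated human transgenes, including APP, from the neuronal Thy1 promoter and is used to model Alzheimer's disease, and CAST is an inbred strain of wild origin. The 2 libraries are numbered as biological replicates 1 and 2, with separate tissue identifiers and a shared donor identifier, so whether they come from separate animals is not settled. The labels name no control group, no parent of origin for the CAST genome and no transgene status of the sampled animals. No allele was measured, so parental expression is given below only as background and every value is a level summed over both alleles. Reads were assigned to the mouse reference mm10, and whether reads from CAST alleles were assigned as fully as the others was not tested. Levels of genes known as maternally and as paternally expressed are set side by side below under that limit.

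An imprinted gene is transcribed mainly from the allele of 1 parent, under the control of DNA methylation laid down in egg or sperm at imprinting control regions. Most imprinted genes lie in clusters in which a long non-coding RNA of one allele is paired with protein-coding genes of the other. Many act on fetal growth and are turned down in most tissues after birth, while skeletal muscle is known as a tissue in which H19 stays on. Of the 10 genes, H19, Igf2r, Meg3, Rian, Mirg, Cdkn1c and Grb10 are known as maternally expressed in most mouse tissues, and Igf2, Dlk1 and Peg3 as paternally expressed.

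Library 1 held 35594289 expected counts and library 2 held 34541905, of which spike-in RNAs took 0.479% and 0.505%. A gene without counts could be present at up to 3 counts, or 0.0843 and 0.0869 CPM (a count scaled to the size of its library) in libraries 1 and 2. These limits and all intervals below cover only the error of counting. The labelled tissue was checked on 5 skeletal muscle fibre markers, which were all detected and summed to 67513 and 77520 TPM (a level corrected for transcript length and scaled to the library). Markers of other cell types were present at far lower sums. Their summed TPM was 150.2 and 169.2 for fibroblasts, 78.5 and 89.8 for satellite cells and regenerating fibres, and 123 and 114 for adipocytes. It was 38.5 and 43.7 for endothelium, 33.8 and 34.4 for Schwann cells, 22.8 and 20.9 for macrophages and 1.37 and 1.63 for neurons. Single genes held most of the first 3 sums and of the macrophage and neuron sums, so the sums do not rank cell types by abundance. These genes were Dcn at 107 and 114 TPM for fibroblasts, Myh8 at 64.1 and 73.9 for satellite cells and regenerating fibres, and Cfd at 96.1 and 89.0 for adipocytes. For macrophages it was Lyz2 at 14.2 and 13.0 TPM, and for neurons Stmn2 at 1.05 and 1.42 TPM. The satellite cell genes Pax7 (0.20 and 0.58 TPM) and Myf5 (0.60 and 0.88 TPM) were low.

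H19 stood far above the other 9 genes, and the genes at the bottom of the order were close to the limit of detection. With detection set at TPM of at least 1 in both libraries, 7 of the 10 genes were detected: H19, Igf2r, Grb10, Igf2, Cdkn1c, Rian and Meg3. Over all annotated genes 19.2% were so detected, over protein-coding genes 44.5% and over genes of the lincRNA type (long intergenic non-coding RNA) 2.02%. Peg3 passed in library 1 alone, and Dlk1 and Mirg in neither. The 10 genes summed to 314 TPM in library 1 and 330 TPM in library 2, of which H19 held 83.5% and 83.8%. The 7 genes known as maternally expressed summed to 302 and 319 TPM, against 12.3 and 10.7 TPM for the 3 known as paternally expressed. In whole tissue, few expressing cells and little RNA per cell cannot be told apart.

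**Figure D1:**
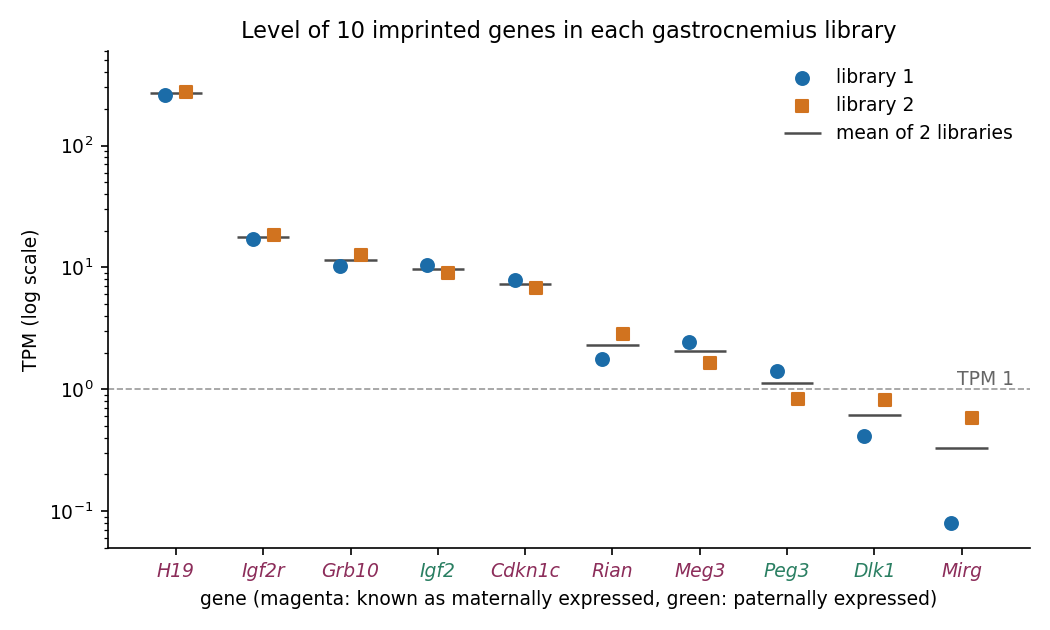
Level of each of the 10 genes in TPM (log axis) in library 1 (circles) and library 2 (squares), with the mean of both as a bar, in order of the mean. H19 lies between 262 and 277 TPM, Igf2r, Grb10, Igf2 and Cdkn1c lie between 6.76 and 18.6 TPM, and Dlk1 and Mirg lie below the dashed line at TPM 1.

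H19 is a long non-coding RNA that is abundant in the fetus and in muscle and carries a microRNA hairpin in one of its exons. The gene (ENSMUSG00000000031.16) lies on the minus strand at chr7:142575529-142578143 in mm10. It had 16831 expected counts in library 1 and 15394 in library 2, which gave 262 and 277 TPM (269 ± 10.0, SD, n = 2). Both libraries placed it at nearly the same level. H19 ranked 5 among the 118 lincRNA genes detected in both libraries, behind Gm26917, Gm42418, Rmrp and Malat1, and held 3.02% and 2.73% of all lincRNA TPM. The lincRNA type is the label of the annotation. The 4 genes above H19 had mean TPM of 5185, 1239, 809 and 692, so they weigh heavily on this share. The log2 ratio of library 2 over library 1, from counts scaled by edgeR's TMM method (trimmed mean of M values), was -0.09 (95% counting interval -0.12 to -0.06). Transcript H19-202 held 92.2 ± 0.591% of the gene's TPM out of 7 annotated transcripts, and 92.7% by the second of the 2 deposited quantifications.

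MicroRNA hairpins inside these genes make them hosts as well as RNAs in their own right, and the mature sequences below show what each host can release. On the strand of the host, 20 annotated hairpins lay inside 5 of the 10 genes: 1 in H19, 1 in Igf2, 1 in Meg3, 3 in Rian and 14 in Mirg. Of these, 6 lay within an exon of at least 1 annotated transcript, namely those of H19 and Meg3 and 4 of Mirg. The sequences are from RefSeq on GRCm38.p6, written 5′ to 3′, and capitals mark the seed, bases 2 to 8, which pairs with target messages. The first pair comes from H19 at chr7:142577112-142577133 and chr7:142577078-142577099, the second from an intron of Igf2, miR-770-5p from Meg3, miR-370-3p from Rian, and the rest from Mirg.
miR-675-5p: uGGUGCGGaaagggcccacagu
miR-675-3p: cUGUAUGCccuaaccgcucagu
miR-483-5p: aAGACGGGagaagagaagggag
miR-483-3p: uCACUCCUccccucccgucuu
miR-770-5p: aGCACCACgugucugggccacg
miR-370-3p: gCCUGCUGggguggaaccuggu
miR-134-5p: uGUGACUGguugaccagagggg
miR-410-3p: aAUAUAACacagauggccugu
miR-453: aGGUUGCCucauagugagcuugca
miR-496a-5p: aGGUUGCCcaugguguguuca
Among the 38 mature sequences, the seed GGUUGCC of miR-453 and miR-496a-5p was the only seed held by more than 1. All 20 microRNA genes were listed at 0 counts in both libraries, and 19 of them had an effective length of 0 in the deposited tables. The level of the mature microRNAs was therefore not measured here.

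Igf2, the neighbour of H19, encodes insulin-like growth factor 2, a fetal growth factor. H19 and Igf2 share enhancers, and methylation of the control region between them decides which of the 2 genes an allele can use. Igf2 (ENSMUSG00000048583.16, minus strand, chr7:142650766-142666816) had 622 and 486 expected counts, or 10.5 and 9.07 TPM (9.79 ± 1.01, SD, n = 2). That placed it above 56.3% of the protein-coding genes detected in both libraries. The log2 ratio between libraries was -0.32 (95% counting interval -0.49 to -0.14), so library 2 held fewer Igf2 counts than library 1 by more than counting error. Per length, H19 stood 24.98-fold above Igf2 in library 1 and 30.5-fold above it in library 2 (log2 level ratio 4.79 ± 0.20, SD, n = 2).

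The counts of Igf2 were spread over several start sites. Transcripts that begin within 100 bases of the RefSeq start at position 142657496 (Igf2-201 and Igf2-202) held 242 and 158 counts, or 38.9% and 32.5% of the gene's counts. Those at the start at 142661271 (Igf2-204 and Igf2-206) held 79.6 and 83.2 counts, or 12.8% and 17.1%. The second quantification gave 389 and 175 counts to the first of these starts and 59.2 and 121 to the second, so the split over starts is uncertain. Igf2-205, which begins at no RefSeq start, held 217 and 173 counts. By TPM, the short Igf2-207 took the largest share of the 9 transcripts (26.2 ± 5.73%), on only 26.7 and 14.6 counts. The 250 bases before each of the first pair of starts are shown because these starts received the most counts among the RefSeq starts, with CpG pairs, the sites of DNA methylation, in capitals (RefSeq, GRCm38.p6, minus strand, chr7:142657497-142657746 and chr7:142661272-142661521).
Igf2 at 142657496: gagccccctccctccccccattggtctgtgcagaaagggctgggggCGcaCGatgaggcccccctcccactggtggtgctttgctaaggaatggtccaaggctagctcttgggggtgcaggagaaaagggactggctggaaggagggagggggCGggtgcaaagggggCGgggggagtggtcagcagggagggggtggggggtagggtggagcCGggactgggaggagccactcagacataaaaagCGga
Igf2 at 142661271: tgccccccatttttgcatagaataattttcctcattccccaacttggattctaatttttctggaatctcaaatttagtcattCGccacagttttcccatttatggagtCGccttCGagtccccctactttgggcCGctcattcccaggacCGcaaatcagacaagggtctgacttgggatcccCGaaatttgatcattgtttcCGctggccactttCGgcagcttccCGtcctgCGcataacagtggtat
The first window holds 6 CpG, which is the median of the 32851 RefSeq windows of this length, and the second holds 10. No annotated transcript begins near the start at 142658804, whose window holds 22 CpG, so it was assigned no counts.

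Igf2r, the receptor that binds insulin-like growth factor 2 and carries it to the lysosome for breakdown, was the highest of the protein-coding genes on the list. The gene (ENSMUSG00000023830.14, minus strand, chr17:12682406-12769664) had 4552 and 4269 expected counts, which is 17.04 and 18.55 TPM (17.8 ± 1.07, SD, n = 2). It stood above 72.9% of the detected protein-coding genes. The log2 ratio between libraries was -0.05 (95% counting interval -0.11 to 0.01). Both values lay above both values of Igf2, the ligand, by 1.62-fold in library 1 and 2.05-fold in library 2 per length (log2 level ratio 0.87 ± 0.24, SD, n = 2). In CPM, where the long Igf2r message collects more reads, the mean log2 ratio was 3.003.

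Igf2r is silenced on the paternal allele by Airn, a non-coding RNA that starts inside the gene and runs against it. Airn had 111 and 85 counts, or 4.45 and 4.18 TPM (4.32 ± 0.191, SD, n = 2). The sources used here do not say whether counting used strand, so reads from the shared stretch may not be told apart. Igf2r-201 held 99.8 ± 0.305% of the gene's TPM. Other genes of the same cluster were low, Slc22a2 with 0 and 1 count and Slc22a3, a transporter of organic cations, with 30 and 49 counts. The window before the Igf2r start (chr17:12769707-12769956, minus strand, same source and marking) is shown because nearly all counts of the gene follow it.
Igf2r: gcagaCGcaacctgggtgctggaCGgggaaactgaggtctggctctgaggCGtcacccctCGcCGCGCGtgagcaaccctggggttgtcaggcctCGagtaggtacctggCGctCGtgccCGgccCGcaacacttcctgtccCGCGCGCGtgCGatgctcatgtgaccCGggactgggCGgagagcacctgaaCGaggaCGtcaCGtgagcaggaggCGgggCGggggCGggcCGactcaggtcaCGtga
It holds 27 CpG, more than 91.4% of windows.

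Grb10 encodes an adaptor protein that binds the insulin and insulin-like growth factor receptors and dampens their signal. The gene (ENSMUSG00000020176.17, minus strand, chr11:11930508-12038683) had 1430 and 1512 expected counts, or 10.3 and 12.6 TPM (11.4 ± 1.56, SD, n = 2). Its values overlap those of Igf2, so the order of these neighbours is not settled. The log2 ratio was 0.12 (95% counting interval 0.01 to 0.23). The gene total was close in both libraries, while its split over start sites was not. Grb10-201, from the start at 12037420, held 1189 counts in library 1 and 1489 in library 2, or 83.1% and 98.5% of the gene's counts. Grb10-203, which starts inside the gene at 12027971, held 207 counts in library 1 and 0 in library 2. The second quantification gave 300.1 and 0.0411 counts for Grb10-203. These are estimates, since reads from exons that the transcripts share are divided among them. The 2 windows show how unlike the 2 starts are (chr11:12037421-12037670 and chr11:12027972-12028221, minus strand, RefSeq, GRCm38.p6, CpG in capitals).
Grb10 at 12037420: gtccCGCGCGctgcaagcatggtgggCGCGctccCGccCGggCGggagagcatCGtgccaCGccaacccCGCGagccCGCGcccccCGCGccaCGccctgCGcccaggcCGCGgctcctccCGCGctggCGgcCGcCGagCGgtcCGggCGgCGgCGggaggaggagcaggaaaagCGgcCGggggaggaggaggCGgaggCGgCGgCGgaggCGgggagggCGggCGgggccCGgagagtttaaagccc
Grb10 at 12027971: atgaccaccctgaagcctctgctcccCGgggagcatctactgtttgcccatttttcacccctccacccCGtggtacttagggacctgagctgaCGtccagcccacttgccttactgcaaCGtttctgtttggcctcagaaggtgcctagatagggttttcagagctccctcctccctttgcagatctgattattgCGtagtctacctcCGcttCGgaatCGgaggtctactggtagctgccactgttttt
The first holds 40 CpG, more than 98.7% of all windows, and the second holds 8. The other genes of this cluster differed widely in level. Cobl, an actin nucleator, stood at 55.8 and 66.3 TPM, and Ddc, the decarboxylase of dopamine synthesis, had 3 and 7 counts.

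**Figure D2:**
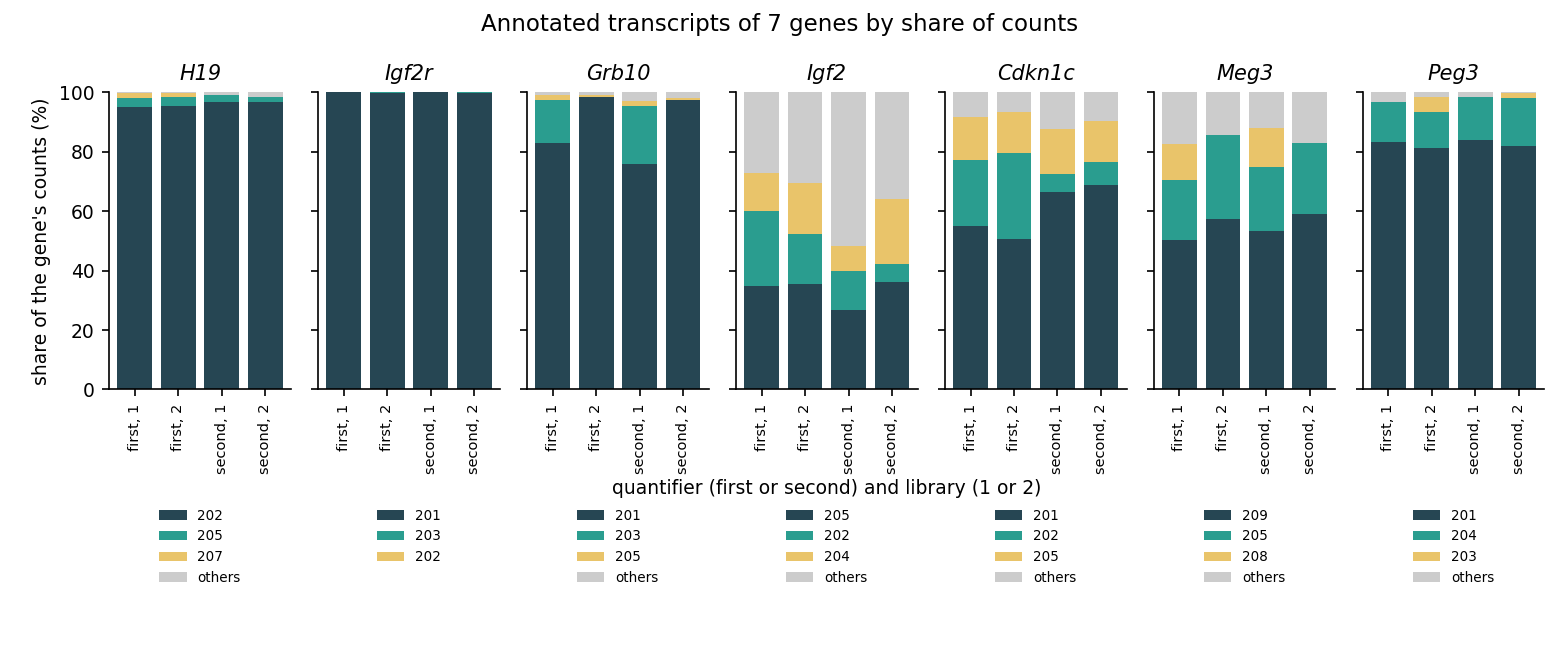
Share of each gene's counts (percent, linear axis from 0) held by its 3 largest annotated transcripts and by all others, for 7 genes, by quantification (first or second) and library (1 or 2), where the number in each key is the transcript's suffix. Grb10-203 is a visible band in library 1 of both quantifications (207 and 300.1 counts) and absent in library 2, while H19-202 and Igf2r-201 fill nearly all of their bars.

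Cdkn1c encodes p57, an inhibitor of cyclin-dependent kinases that holds cells out of the cell cycle. The gene (ENSMUSG00000037664.13, minus strand, chr7:143458339-143461050) lies in the cluster next to that of H19. It had 269 and 209 expected counts, which is 7.90 and 6.76 TPM (7.33 ± 0.806, SD, n = 2), above 47.5% of detected protein-coding genes. Library 2 was lower, with a log2 ratio of -0.32 (95% counting interval -0.59 to -0.06). Cdkn1c-201 held the largest share of its TPM (33.6 ± 0.675%) among 5 transcripts, and held 54.9% and 50.7% of its counts.

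Kcnq1ot1 is the long non-coding RNA whose transcription silences Cdkn1c on the paternal allele. It had 985 and 1003 counts over an annotated length of many kilobases, and so only 0.35 and 0.41 TPM. Per length, Cdkn1c stood 22.6-fold and 16.5-fold above it (log2 level ratio 4.27 ± 0.32, SD, n = 2). In counts the order is the opposite, with a mean log2 ratio of -2.07. Of the other genes of both distal chromosome 7 clusters, Phlda2, Ascl2 and Ins2 were at 0 counts in both libraries, and Slc22a18 (5 and 2 counts) and Kcnq1 (14 and 7 counts) were near it. Cd81, a widely expressed tetraspanin, stood at 32.3 and 36.7 TPM, Osbpl5 at 4.19 and 6.64 TPM and Tssc4 at 2.65 and 2.94 TPM.

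The distal chromosome 12 cluster was low throughout, and of its genes named here only the non-coding RNAs Meg3 and Rian were detected. In this cluster the maternal allele is known to make Meg3, Rian and Mirg, which may be parts of 1 long transcript, and the paternal allele makes Dlk1, Rtl1 and Dio3. Meg3 (ENSMUSG00000021268.17, plus strand, chr12:109541001-109571726) had 122 and 95 counts, or 2.45 and 1.64 TPM (2.05 ± 0.573, SD, n = 2). Rian (ENSMUSG00000097451.10, plus strand, chr12:109603940-109661716), a host of small nucleolar RNAs, had 68 and 84 counts, or 1.78 and 2.83 TPM (2.31 ± 0.742, SD, n = 2). Mirg (ENSMUSG00000097391.8, plus strand, chr12:109729764-109749460), the host of many microRNAs, had 4 and 9 counts, or 0.08 and 0.58 TPM (0.330 ± 0.354, SD, n = 2). Per length, Meg3 and Rian both lay above Mirg in each library, Rian by a log2 level ratio of 4.48 and 2.29 (3.38 ± 1.55, SD, n = 2). The TPM order of Meg3 and Rian was not the same in both, with a log2 level ratio of Meg3 over Rian of 0.46 in library 1 and -0.79 in library 2 (mean -0.16 ± 0.88, SD, n = 2). The second quantification placed Rian above Meg3 in both libraries (log2 level ratio -0.57 and -0.81). So did the posterior mean TPM that the authors deposited with the first, at 3.11 and 4.02 for Rian against 2.87 and 2.20 for Meg3. Over the same genes the effective length of Meg3 in the tables was 1636 bases in library 1 and 2198 in library 2. The log2 count ratio between libraries was -0.32 for Meg3 (95% counting interval -0.72 to 0.08) and 0.34 for Rian (-0.13 to 0.83), and both intervals include 0.

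The transcripts of these RNAs were poorly resolved. Meg3-209, an entry of 14548 bases, held 50.5% and 57.2% of Meg3 counts, while Meg3-205 had the largest share of TPM (34.2 ± 15.4%). The second quantification gave Meg3-202 the largest share of TPM in place of Meg3-205. Rian-202 held 30.2 ± 4.39% of Rian TPM out of 20 transcripts, and 18.3% by the second quantification. Meg3-205 begins with 2 other transcripts at a start that received 26.2% and 28.6% of Meg3 counts, and the window before it (chr12:109540746-109540995, plus strand, same source and marking) is shown because it alone among 13 windows of 8 of these genes holds the letters TGCCGC, searched on both strands (GCGGCA on the other).
Meg3: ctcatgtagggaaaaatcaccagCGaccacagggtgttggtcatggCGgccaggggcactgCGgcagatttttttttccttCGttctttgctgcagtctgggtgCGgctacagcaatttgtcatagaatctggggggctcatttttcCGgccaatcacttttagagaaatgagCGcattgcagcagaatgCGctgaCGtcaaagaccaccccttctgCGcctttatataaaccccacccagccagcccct
TGCCGC is the core that the imprint-maintaining protein Zfp57 is known to bind when methylated, and 8.68% of all 32851 windows hold it.

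Dlk1 encodes a transmembrane protein of the delta-like family that is known to restrain fat cell differentiation and is high in fetal muscle. The gene (ENSMUSG00000040856.17, plus strand, chr12:109452823-109463336) had 14 and 18 counts, or 0.41 and 0.82 TPM (0.615 ± 0.290, SD, n = 2). Its counting interval is wide, with a log2 ratio of 0.40 (-0.69 to 1.52). Per length, Meg3 stood 5.98-fold and 2.00-fold above Dlk1 (log2 level ratio 1.79 ± 1.12, SD, n = 2). Rtl1 had 0 counts in both libraries, and Dio3, which inactivates thyroid hormone, had 5 and 3. The closest relative of Dlk1, Dlk2, had 1 and 5 counts.

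Peg3 encodes a zinc finger protein that is known to bind DNA and to be present in muscle stem cells and many adult tissues. The gene (ENSMUSG00000002265.16, minus strand, chr7:6703892-6730431) had 241 counts in library 1 and 138 in library 2, or 1.41 and 0.84 TPM (1.13 ± 0.403, SD, n = 2). It was the member with the clearest gap between the libraries, 1.70-fold higher in library 1 (log2 ratio -0.76, 95% counting interval -1.08 to -0.46). Median log2 ratios were taken over markers with mean TPM of at least 1 and a summed count of at least 100. They were 0.03 for 5 of 5 skeletal muscle fibre genes and -0.04 for 4 of 6 satellite cell and regenerating fibre genes. They were -0.08 for 5 of 5 fibroblast, -0.10 for 5 of 5 endothelial and -0.13 for 4 of 5 adipocyte genes. For 4 of 5 Schwann cell genes the median was -0.18 and for 3 of 5 macrophage genes -0.35, while 1 of 5 neuron genes stood at 0.27. Medians hide markers that differ: for fibroblasts, Col1a1 and Col3a1 were both at 0.50, and Pdgfra, Ly6a and Dcn at -0.33, -0.11 and -0.08. Markers below that filter with a summed count of at least 20 went both ways. Pax7, which defines satellite cells, had 35 and 62 counts (log2 ratio 0.86, 95% counting interval 0.24 to 1.51). Myf5 had 36 and 46 counts, and the adipocyte marker Lep had 50 and 84 (0.79, 0.27 to 1.32). The macrophage markers Adgre1, with 43 and 29 counts, and Cd68, with 22 and 15, had log2 ratios of -0.53 and -0.51, with intervals that include 0. The Schwann cell marker Sox10 had 19 and 19 counts. No marker was at 0 in both libraries. Their part in the Peg3 gap was not tested. Peg3-201 held 83.3% and 81.4% of the gene's counts, so the split over transcripts was close in both libraries. In the same cluster, Zim1, another zinc finger gene, had 64 and 57 counts and Usp29 had 1 and 0.

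Between the libraries, the 10 genes were mostly close. A ratio was set against all genes where mean TPM was at least 1 and the summed count at least 100, which 8 of the 10 reached (all but Dlk1 and Mirg). None of the 8 differed by more than 2-fold between libraries, against 0.687% of the 10484 genes so measured (72 genes). Past 1.5-fold there was 1 of the 8, Peg3, against 3.27% of all genes in either direction and 2.1% in the direction of Peg3. Of the 8, 6 were higher in library 1 and 2 in library 2, with a median log2 ratio of -0.20. Over all 10484 genes, 5031 were higher in library 1 and 5453 in library 2, with a median of 0.01. On deposited TPM the 8 genes split 4 and 4, and the median of all genes moved to 0.17.

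**Figure D3:**
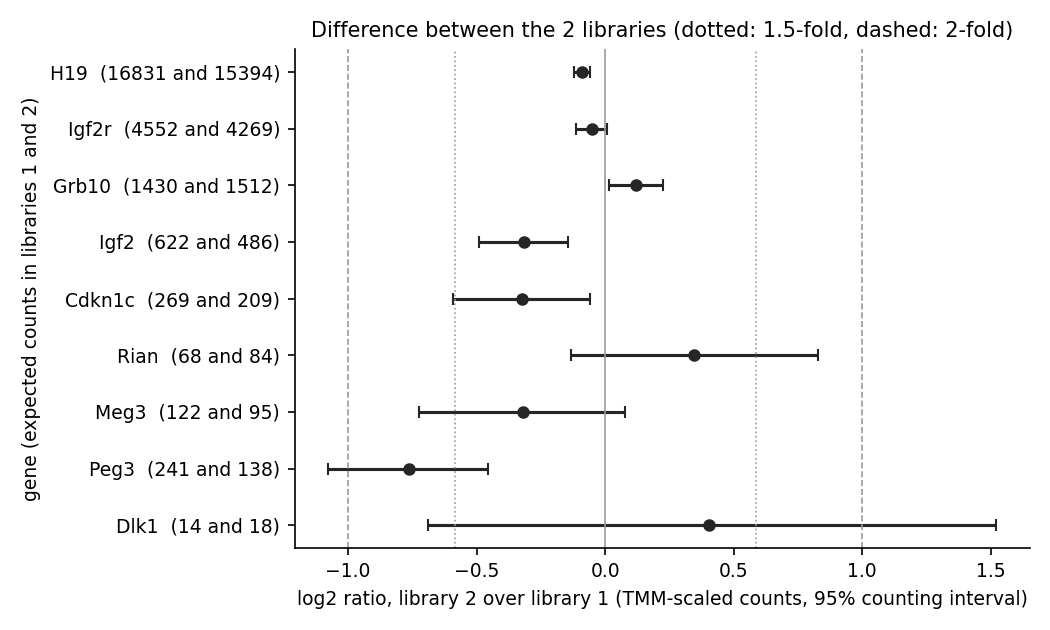
Log2 ratio of library 2 over library 1 from TMM-scaled counts (horizontal axis) for the 9 genes with a summed count of at least 20, with exact 95% counting intervals as bars and expected counts beside each name. Peg3 at -0.76 is the one point outside the dotted 1.5-fold lines, and the interval is narrowest for H19 at the top and widest for Dlk1 at the bottom.

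Both quantifications placed the 10 genes in similar positions. The log2 ratio of the second quantification's TPM over the first's was -0.13 for H19, -0.18 for Igf2r, 0.08 for Grb10, -0.06 for Igf2 and 0.17 for Cdkn1c. It was 0.49 for Rian, whose TPM by the second quantification was 3.57 in library 1 and 2.92 in library 2, so that the order of the libraries turned. It was -1.13 for Mirg, the only one of the 10 outside the 95% range given next. That range covers genes with mean TPM of at least 1, which Mirg, at 0.33 on 4 and 9 counts, did not reach. Over all 10849 genes with mean TPM of at least 1 the median was -0.05, and 95% of genes lay between -0.59 and 0.59.

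A wider list of 48 other imprinted genes puts these levels in context. Of the 48, 18 (37.5%) were detected in both libraries, against 19.2% of all annotated and 44.5% of protein-coding genes. They were 8 of 20 known as maternally expressed and 10 of 28 known as paternally expressed. Another 6 had 0 counts in both libraries. Together with the 10 genes, 14 of 27 genes known as maternally expressed and 11 of 31 known as paternally expressed were detected. These parental labels are background and do not say that a gene is imprinted in muscle, which was not measured. H19 was second in the combined list to Gnas, which encodes the stimulatory G protein alpha subunit and stood at 460 and 523 TPM (491 ± 44.6, SD, n = 2). Gnas is known to be imprinted in only some tissues. Below H19 came Snurf at 84.7 and 112 TPM, Cobl, Slc38a4, an amino acid transporter, at 58.3 and 56.4 TPM, and Ube3a, a ubiquitin ligase, at 40.0 and 45.7 TPM. Snurf shares its exons with Snrpn, and the second quantification listed it at 0, so its own level is uncertain.

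**Figure D4:**
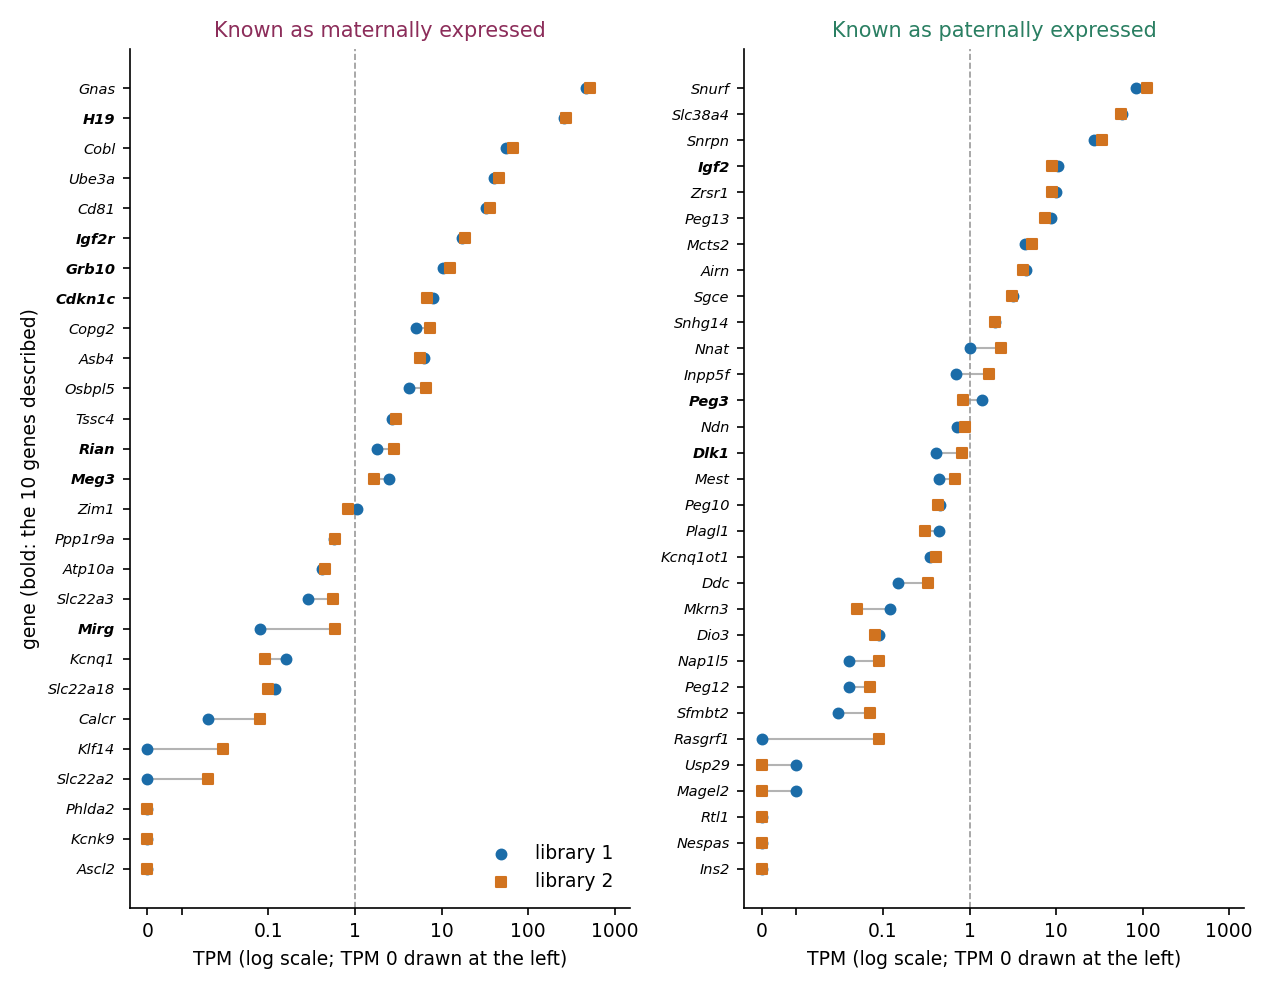
TPM (log axis, with 0 drawn at the left) of 58 imprinted genes in library 1 (circles) and library 2 (squares), in separate panels for those known as maternally and as paternally expressed, with the 10 described genes in bold. H19 is second only to Gnas on the left, and Igf2 at 10.5 and 9.07 TPM is the highest of the bold genes on the right.

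Of 19 genes of the insulin-like growth factor axis, 13 (68.4%) were detected in both libraries, against 44.5% of all protein-coding genes. Insr, the insulin receptor, stood at 23.4 and 23.8 TPM, Grb2, a growth factor receptor adaptor, at 26.5 and 30.5 TPM and Igfbp7 at 18.5 and 22.6 TPM. Igfbp5, a binding protein for both insulin-like growth factors, had 6712 and 10102 counts, or 37.4 and 65.2 TPM, with a log2 ratio of 0.63 (95% counting interval 0.58 to 0.67), past 1.5-fold. Beside it, Grb14, the relative of Grb10 in muscle, was also past 1.5-fold and was named after its values were seen, with 186 and 312 counts and a log2 ratio of 0.79 (0.52 to 1.06). Over all genes with mean TPM of at least 1 and a summed count of at least 100, 3.27% were past 1.5-fold. Igf2bp1, which binds Igf2 messages in the fetus, had 0 counts in both libraries.

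Genes that keep imprints and the relatives of Cdkn1c and Dlk1 were detected in part, where the share over all protein-coding genes was 44.5%. Of 12 genes of imprint maintenance, 7 were detected, led by Trim28, a corepressor, at 28.3 and 25.5 TPM, Dnmt3a, a DNA methyltransferase, at 16.2 and 22.8 TPM, Ctcf, which insulates Igf2 from its enhancers on the maternal allele, at 14.6 and 18.0 TPM and Zfp445 at 13.1 and 14.8 TPM. The 5 not detected were Uhrf1, Dnmt3b, Zfp57, Ctcfl and Dppa3, the last at 0 counts in both libraries. Of 6 cyclin-dependent kinase inhibitors other than Cdkn1c, 4 were detected, and Cdkn1b and Cdkn1a stood at 13.99 and 15.30 TPM and at 12.6 and 7.95 TPM. Cdkn2c stood at 8.90 and 7.11 TPM and Cdkn2d at 3.95 and 4.02 TPM. Cdkn1a, the p21 inhibitor, had 688 and 379 counts and a log2 ratio of -0.82 (95% counting interval -1.01 to -0.64). Of 9 delta-like and Notch genes, 7 were detected, with the ligand Jag2 highest at 8.33 and 14.5 TPM. The receptors Notch3, Notch2 and Notch4 followed at 3.02 and 4.15, 2.95 and 2.79, and 2.2 and 3.0 TPM.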

How the data were processed

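Total RNA of 2 gastrocnemius libraries was analysed as 1 group. Per the deposited read-me, the authors assigned reads to mm10 with the GENCODE M21 annotation, once from an alignment to transcripts (first quantification) and once straight from the reads (second quantification). The sources used here name neither the software nor a strand setting. The deposited expected counts of the first and estimated counts of the second are not whole, since reads that match several transcripts are shared, and they were rounded here. The deposited TPM values relate to all entries of a table, including spike-ins. Each transcript's percent of its gene, also deposited, was recomputed here from TPM.

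All 10 genes and all 145 list genes matched the annotation, and 86 annotated genes are absent from the second quantification. The 26248 entries with numeric identifiers held 1 and 0 counts and were left out. Detection was TPM of at least 1. Ratios between libraries used counts scaled by TMM (edgeR 4.0.16), with exact Clopper-Pearson 95% intervals, for genes with a summed count of at least 20, and the code was tested on simulated data. RefSeq windows were matched to transcripts starting within 100 bases, for 8 of the 10 genes. All 10 genes were named, and from other lists the 4 highest genes and every gene of a member's own cluster, while marker lists are given by sums and medians. Other genes, such as Pax7, Myf5, the other single markers outside the fibre list, Grb14 and the genes named as not detected or at 0 counts, were named after their values were seen. The genes and lists were chosen with earlier results of these data known. With 2 libraries and no second group, no test was made, and each SD has n = 2 and measures only the spread between these libraries, which may be technical. Alternatives were other scalings, thresholds, filters and units, the deposited posterior mean TPM, the second quantification and leaving out each library.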

Additional observations from a re-analysis of the deposited data

How the results depend on the processing

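No paired analysis was possible because there is only 1 group. Detection of the 10 genes ranged from 5 at TPM of at least 5 to 8 at 0.5, and was 7 by the second quantification. Of the 48 other imprinted genes, 11 were detected at TPM of at least 5, against 18 at 1. With no filter on the summed count, 1 gene (Mirg, on 4 and 9 counts) was past 2-fold between libraries and 2 were past 1.5-fold. On deposited TPM 2 of the 8 filtered genes were past 1.5-fold, Rian joining Peg3 at 0.67. The share over all genes also rose on that scale, to 7.41%. The second quantification's TPM of Rian was lower in library 2 (3.57 and 2.92). Posterior mean TPM raised Rian from 2.31 to 3.57 and Mirg from 0.33 to 0.83, and placed Dlk1 (1.07) and Mirg (1.10) above TPM 1 in library 2. The Peg3 log2 ratio ranged from -0.68 (second quantification) to -0.84 (spike-in scaling). Without length correction, Igf2r over Igf2 was 3.003 in place of 0.87, and Cdkn1c over Kcnq1ot1 was -2.07 in place of 4.27. H19 turned from -0.09 to 0.08 and Igf2r from -0.05 to 0.12 on deposited TPM, where the median of all genes is 0.17. Leaving out either library moved no level by more than 1 SD, which holds by construction with 2 libraries. Relative to nuclear protein-coding genes alone, all 10 levels rise (H19 to 645 TPM). Below about 100 counts, as for Rian, Dlk1 and Mirg, the depth sets wide counting intervals.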

Other observations

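The genes below were named after their values were seen. Nctc1, a non-coding RNA gene of chr7:142544609-142558596 that lies 16933 bases beyond the 3′ end of H19 on the same strand, in the stretch known for the muscle enhancers of H19 and Igf2, had 4627 and 4748 counts. Its level of 61.3 and 72.7 TPM (67.0 ± 8.06, SD, n = 2) ranked 1 among detected genes of the processed transcript type, and its log2 ratio between libraries was 0.08 (95% counting interval 0.02 to 0.14). Apart from Airn, given above, the genes examined that overlap or face the 10 genes took few counts. Igf2os, antisense to Igf2, had 3 and 1, Gm49394, which shares Igf2 exons, had 0 and 4.7, and Gm26906, antisense to Meg3, had 0 in both.

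Zrsr1, a paternally expressed gene inside Commd1, had 715 and 632 counts in the first quantification and 8830 and 4837 in the second. Nnat, which encodes a small membrane protein, had 34 and 67 counts with a log2 ratio of 1.02 (95% counting interval 0.40 to 1.66). Of the other imprinted genes, 19 had mean TPM of at least 1 and a summed count of at least 100, and Nnat was the 1 past 1.5-fold. Nnat passed this filter narrowly, with 1.00 and 2.33 TPM. Over all genes that passed this filter, 3.27% were past 1.5-fold. Below that filter, Slc22a3, with 30 and 49 counts, had a log2 ratio of 0.75 (0.06 to 1.45), Kcnq1, with 14 and 7, one of -0.96 (-2.51 to 0.44), and Sfmbt2, with 8 and 14, one of 0.85 (-0.51 to 2.31). Zfp57 stood at 0.10 and 0.11 TPM on 7 and 2 counts, against 13.1 and 14.8 TPM for Zfp445, the other zinc finger protein known to protect imprints.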
